A study of Homo sapiens with 8 samples.

Results

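The immediate-early response genes studied here were FOS, FOSB, JUN, JUNB, EGR1, ATF3, IER2, DUSP1, ZFP36 and NR4A1. They were chosen by gene symbol, as genes that serum and the handling of cells or tissue are known to switch on, by a rule that uses no value of these libraries, although earlier results of these data were known when it was made. All 10 were found among the 18664 genes of the table, and 7 of the 10 passed the filter on low counts that left 7971 genes for the test. FOSB, IER2 and DUSP1 did not pass it. The RNA-seq libraries were labelled as HT29, an established line of human colon cancer cells, kept in medium with 10% FBS (fetal bovine serum). In 4 libraries, named shALDH1A1, the aldehyde dehydrogenase gene ALDH1A1 was knocked down with a short hairpin RNA, and 4 libraries, named CTRL, were the control. Which of the human hairpins was sequenced is not given in the sources used here, and the control is described in different places as a control hairpin, as wild type and as parental cells. No source states that replicates were separate cultures, so p-values measure the spread between these libraries, which may be technical.

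Immediate-early genes are transcribed within minutes of a stimulus, without new protein synthesis, because their activating factors are already bound or waiting in the cell. Growth factors and stress act through MAP kinases on the serum response factor with its ternary complex partners, and on CREB and ATF proteins at cyclic AMP response elements. The products are transcription factors and also brakes on the same cascade, and most of the messages are short-lived. In intestinal epithelium these genes answer growth factors, wounding and tissue dissociation.

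The stretch of 150 bases before the transcription start is shown for 5 members, because the elements that receive these signals lie there. The sequences are RefSeq promoters (GRCh38.p14) written 5′ to 3′ on the gene's strand, each ending at the base before the start. Capitals mark the core of a cyclic AMP response element (TGACG), the CArG box that the serum response factor binds, which is 6 bases of A or T between paired C and paired G, and the TATA box (TATAAA), each in either orientation. NR4A1 has a pair of listed starts that lie apart from each other, and both are shown because it was the member whose counts went the other way.
FOS, chr14:75278678-75278827, plus strand: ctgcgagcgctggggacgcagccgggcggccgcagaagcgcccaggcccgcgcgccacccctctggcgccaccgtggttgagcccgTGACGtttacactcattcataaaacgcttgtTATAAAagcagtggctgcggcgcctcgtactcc
JUN, chr1:58784048-58784197, minus strand: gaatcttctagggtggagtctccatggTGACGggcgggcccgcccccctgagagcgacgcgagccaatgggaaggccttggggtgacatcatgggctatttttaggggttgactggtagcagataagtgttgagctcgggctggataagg
EGR1, chr5:138465329-138465478, plus strand: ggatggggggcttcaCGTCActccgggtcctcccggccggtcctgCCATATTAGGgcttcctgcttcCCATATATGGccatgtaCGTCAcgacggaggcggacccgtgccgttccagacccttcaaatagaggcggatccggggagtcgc
DUSP1, chr5:172771196-172771345, minus strand: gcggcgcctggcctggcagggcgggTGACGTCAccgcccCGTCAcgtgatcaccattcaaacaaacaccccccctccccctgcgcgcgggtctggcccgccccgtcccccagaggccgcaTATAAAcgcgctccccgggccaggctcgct
NR4A1, chr12:52022682-52022831, plus strand: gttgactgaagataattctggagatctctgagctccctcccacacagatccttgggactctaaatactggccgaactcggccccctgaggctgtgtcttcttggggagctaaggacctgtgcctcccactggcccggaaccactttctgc
NR4A1, chr12:52037565-52037714, plus strand: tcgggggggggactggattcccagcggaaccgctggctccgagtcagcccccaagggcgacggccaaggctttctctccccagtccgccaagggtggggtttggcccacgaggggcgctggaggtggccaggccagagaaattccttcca
The motifs were counted on both strands in the whole listed promoters, from 250 bases before to 50 after each start, of which there were 12 for the 10 members and 35116 in all. TGACG lay in a promoter of 7 members (FOS, FOSB, JUN, JUNB, EGR1, IER2 and DUSP1), against 24.6% of all promoters. TATAAA lay in a promoter of 5 members (FOS, FOSB, JUNB, ATF3 and DUSP1), against 11.5% of all promoters. DUSP1 alone held the full palindrome TGACGTCA, which 1.85% of all promoters held and which overlaps TGACG. CArG boxes were found in EGR1 only, at 105 to 96 and at 83 to 74 bases before the start, and 1.29% of all promoters held one. The classical serum response element of FOS lies upstream of this window. The AP-1 site TGANTCA, at which FOS and JUN dimers bind, lay in none of the 12 and in 7.71% of all promoters. Only this form of the AP-1 site was searched. The letters TGACATCA in the JUN stretch above, longer by a base, were not counted. Neither of the listed NR4A1 promoters held any of the marked elements within this window. Other starts of NR4A1 were not examined, so this does not show that the gene lacks such elements. These are matches of letters within a window and say nothing of binding in these cells.

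Where 4 values are given for a group below, they follow the order of replicates 1 to 4. The 8 libraries differed in depth and make-up. They held 291260 to 4137111 counts, the fewest in CTRL replicate 2 and the most in CTRL replicate 3. The targeted gene followed the labels, with 0 to 3 ALDH1A1 counts after knockdown and 83 to 1870 in the controls. A list of 34 genes that every cell uses held 1.10 to 4.73% of the CTRL counts but 0.0267 to 0.176% of the shALDH1A1 counts. Of 12 colon epithelium genes, CDX1 and CDX2, the factors that define intestinal identity, had 0 or 1 and 0 to 3 counts a library. Keratins, LGALS4 and other genes of the list were counted, most in CTRL replicate 3 (KRT8 3025, KRT20 454, LGALS4 403 counts). The list summed to 0.00267 to 0.0170% of the shALDH1A1 and 0.0144 to 0.133% of the CTRL counts. The 14 stomach epithelium genes took 3.28 to 38.7% of the CTRL counts, the most in CTRL replicate 3. After knockdown the stomach genes held 0.00194 to 0.0387%, and ATP4A and ATP4B, the proton pump of acid-secreting cells, were at 0 in all 4. Smooth muscle genes took 2.64% of the counts of CTRL replicate 1 and at most 0.0774% of any other CTRL library. The stomach and smooth muscle genes and the low CDX1 and CDX2 counts go against the colon label, above all in the CTRL libraries. The groups are therefore called by their labels only. The part of these differences in the results below was not tested. In bulk RNA, fewer cells of a type and less RNA per cell cannot be told apart.

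Of the 7 members tested, JUN fell in shALDH1A1 libraries and none rose, with the quasi-likelihood test of edgeR and Benjamini-Hochberg adjustment over all tested genes (call at an adjusted p under 0.05). Of all tested genes, 33% were called lower and 2.6% higher, so 1 of 7 is no more than the background. The median log2 fold change of the 7 members was -2.38, beside -1.44 over all tested genes. Relative to that median, JUN was lower in each of 17 settings run (the reported fit and 16 alternatives), at -4.10 to -1.15 on the log2 scale. NR4A1, an orphan nuclear receptor, was higher than the median in each of the 17, at 2.48 to 4.84. FOS, JUNB, EGR1, ATF3 and ZFP36 were below the median in 12 to 16 of the 17. The count moved when single libraries were left out. Without CTRL replicate 3, 0 members were lower or higher (25.8% and 0.628% of tested genes), and without CTRL replicate 2, 8 of 9 were lower (60.4% of tested genes) and NR4A1 was higher.

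**Figure D1:**
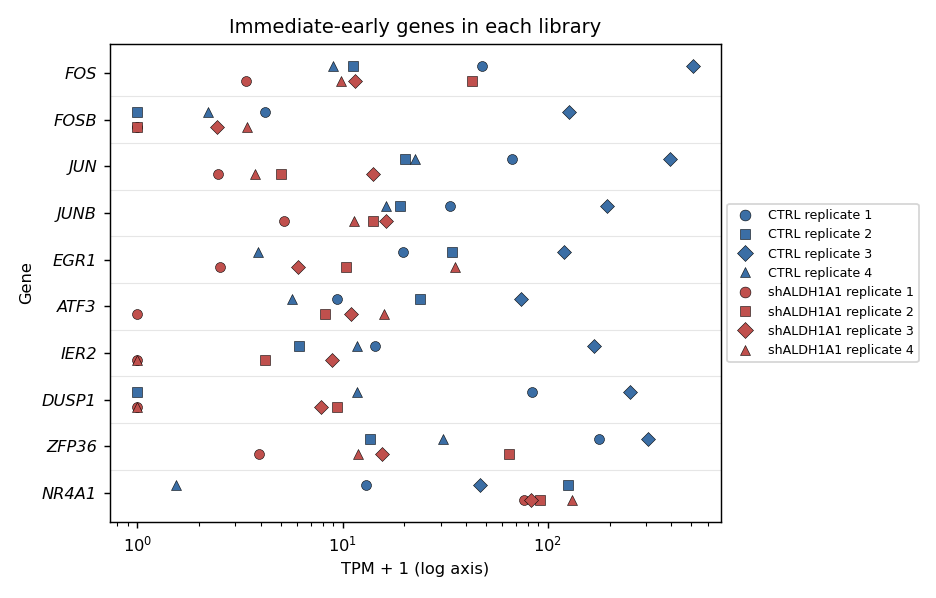
TPM + 1 (abundance per length, log axis) of the 10 immediate-early genes, with 1 point per library, CTRL in blue and shALDH1A1 in red, and a symbol for each replicate number. CTRL replicate 3 (blue diamond) was the highest of the 8 libraries for 9 genes, and for NR4A1 the 4 shALDH1A1 libraries lay between 75.5 and 130 TPM.

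JUN and FOS form the AP-1 transcription factor, JUN as the partner that can also bind DNA as a homodimer. JUN was at 1.48, 4.00, 13.04 and 2.73 TPM with the knockdown and at 66.2, 19.1, 391 and 21.6 TPM without it. Every CTRL library was above every shALDH1A1 library in TPM, but after TMM scaling the groups overlapped, since shALDH1A1 replicate 3 reached 5.07 and CTRL replicate 2 was at 4.32 log2(CPM + 1). On counts, 2, 4, 16 and 1 stood against 405, 6, 3612 and 110. The log2 fold change was -4.04 (SE 1.38, adjusted p = 0.0244 with edgeR). The call was lost without CTRL replicate 3 (-2.43, adjusted p = 0.116), and also without shALDH1A1 replicate 1 (adjusted p = 0.0967), replicate 2 (adjusted p = 0.0908) or replicate 4 (adjusted p = 0.0805). Scaled to the 34 every-cell genes it was -2.35 (adjusted p = 0.131), where the median of all tested genes was 1.75. With limma on log2(TPM + 1), JUN fell by 3.54 (adjusted p = 0.0158), where 30.7% of all genes tested were lower.

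FOS, the AP-1 subunit that needs a JUN protein to bind DNA, was at 2.38, 41.8, 10.5 and 8.82 TPM with the knockdown. The controls were at 46.5, 10.2, 509 and 7.95 TPM. The groups overlapped: shALDH1A1 replicate 2 was above CTRL replicates 2 and 4, and CTRL replicate 3 was 10.9 times the next CTRL library. In counts that was 2, 26, 8 and 2 against 176, 2, 2905 and 25. Its log2 fold change of -2.89 (SE 1.33, adjusted p = 0.0833 with edgeR) did not pass, and without CTRL replicate 3 it was -0.33 (adjusted p = 0.824). FOS passed in 6 of 16 alternatives, among them median-of-ratios factors (-4.01, adjusted p = 0.00455) and the fit without CTRL replicate 2 (-4.19, adjusted p = 0.000412). The former fit called 4192 of 7971 tested genes lower and the latter 60.4%, so passing there was common. JUNB, EGR1 and ZFP36 also passed in 6 and ATF3 in 5 of the 16. Relative to the median of all tested genes FOS changed sign without CTRL replicate 3, from -1.44 to 0.95. Without CTRL replicate 2 it stayed below that median, at -1.37. Among the genes of its library, FOS ranked at the 99.4th percentile of TPM in CTRL replicate 3 and at the 65.8th to 92.1st in the other 7.

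FOSB, the FOS relative that persists in nerve cells as a shortened form, was the member most particular to CTRL replicate 3. Its counts were 0, 0, 2 and 1 with the knockdown against 22, 0, 1340 and 7. It failed the filter on low counts, and CTRL replicate 3 was 39.5 times the next CTRL library in TPM. Over summed counts, set against TMM-scaled library sizes, CTRL was 104 times shALDH1A1 (95% counting interval 35.6 to 506, from 3 shALDH1A1 counts). Without CTRL replicate 3 the ratio was 4.32 (1.34 to 22.1), and such intervals cover counting error only. In CTRL replicate 3 the counts were split by the authors' estimate over 3 transcripts, 692 on NM_001114171.2, 492 on NM_006732.3 and 156 on XM_005258691.1, and in every other library with a count they were all on XM_005258691.1.

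JUNB, which pairs with FOS proteins and is a weaker activator than JUN, had a narrow range in shALDH1A1 libraries, on 2 to 10 counts. It was at 4.17, 13.1, 15.3 and 10.3 TPM with the knockdown and at 32.2, 17.96, 193 and 15.28 TPM without it. The groups touched only at shALDH1A1 replicate 3 and CTRL replicate 4, which were at 15.30 and 15.28 TPM. The log2 fold change was -2.41 (SE 1.07, adjusted p = 0.0757 with edgeR), and -1.04 without CTRL replicate 3.

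ATF3, a stress-induced factor of the ATF family that can also pair with JUN, had 0, 4, 7 and 3 counts with the knockdown. The controls had 29, 4, 388 and 13. The TPM ranges overlapped, at 0 to 14.8 and 4.64 to 72.9. Its log2 fold change was -1.89 (SE 1.04, adjusted p = 0.138 with edgeR), and it turned to 0.16 (adjusted p = 0.920) when libraries were scaled to every-cell genes. Of its 6 listed transcripts 5 had counts, and no transcript was counted in more than 4 libraries.

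EGR1, a zinc-finger factor whose promoter carries the pair of CArG boxes shown above, was at 1.54, 9.36, 5.09 and 34.2 TPM with the knockdown. The controls were at 18.7, 33.2, 119 and 2.87 TPM. The highest shALDH1A1 library was thus above 3 of 4 CTRL libraries, on 12 counts among 536575. The log2 fold change was -2.38 (SE 1.07, adjusted p = 0.0774 with edgeR), -1.003 without CTRL replicate 3 and 0.45 (adjusted p = 0.786) when scaled to every-cell genes.

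IER2, a short nuclear protein, had 0, 2, 6 and 0 counts with the knockdown against 51, 1, 950 and 34. With limma on log2(TPM + 1) it fell by 3.05 (SE 1.06, adjusted p = 0.0335). JUN and IER2 were the 2 of 10 members that limma called lower and 0 were called higher. Of all genes tested, limma called 30.7% lower and 9.12% higher. CTRL replicate 3 stood at 166 TPM, 12.3 times the next CTRL library, and the shALDH1A1 libraries reached at most 7.83 TPM, above CTRL replicate 2 at 5.11 TPM.

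DUSP1 and ZFP36 are the brakes among the members. DUSP1 is a phosphatase that switches MAP kinases off, and its promoter above held the TGACGTCA palindrome. Its counts were 0, 5, 5 and 0 with the knockdown against 298, 0, 1359 and 32. It therefore reached 8.44 TPM at most after knockdown and ranged from 0 to 250.3 TPM in the controls, of which replicate 2, the shallowest, had none. With limma on log2(TPM + 1) its difference was -2.92 (SE 1.41, adjusted p = 0.107). With no filter on low counts 9 of 10 members were called lower with edgeR, FOSB at -6.18 (adjusted p = 2.84e-05), DUSP1 at -5.09 (adjusted p = 0.000141) and IER2 at -4.63 (adjusted p = 0.000306), in a fit that called 6848 of 17310 genes lower.

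ZFP36, which binds AU-rich elements and sends short-lived messages to decay, was at 2.93, 63.3, 14.5 and 10.9 TPM with the knockdown. The controls were at 177, 12.6, 307 and 29.9 TPM. The groups overlapped: shALDH1A1 replicate 2 was above CTRL replicates 2 and 4, and shALDH1A1 replicate 3 was above CTRL replicate 2. The log2 fold change was -2.24 (SE 1.19, adjusted p = 0.127 with edgeR). ZFP36 was the only one of the 9 members highest in CTRL replicate 3 for which another CTRL library, replicate 1, came close, at a ratio of 1.73.

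NR4A1 went the other way. With the knockdown it was at 75.5, 90.1, 81.4 and 130 TPM, a mean of 94.1 ± 24.3 (SD, n = 4). The controls were at 12.1, 124, 45.9 and 0.54 TPM, a mean of 45.7 ± 55.8 (SD, n = 4). The shALDH1A1 libraries lay close together at the 94.9th to 95.5th percentile of their genes, while the CTRL libraries spread from the 36.4th to the 94.4th. Only CTRL replicate 2 lay within the range of the shALDH1A1 libraries. The log2 fold change was 1.49 (SE 1.19, adjusted p = 0.290 with edgeR) and did not pass. Without CTRL replicate 2 it was 2.02 (adjusted p = 0.0240), in a fit with 17.3% of genes called higher, and scaled to every-cell genes it was 4.37 (adjusted p = 0.0244), with 39.7% of genes called higher. In the other 14 alternatives NR4A1 did not pass, at 0.15 by library totals only (adjusted p = 0.911), 0.86 without CTRL replicate 4 (adjusted p = 0.466) and 1.12 to 2.67 in the rest. NR4A1 made up 37.5 to 85.8% of the summed TPM of the 10 members after knockdown and 50.7% in CTRL replicate 2, but 0.512 to 2.61% in the remaining controls.

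The transcripts behind the NR4A1 counts also differed. Of 9 listed transcripts, NM_001202234.1 took 111, 97.9, 108 and 51.4 counts with the knockdown, which was 100% of NR4A1 in each library. It took 18.2, 42.3, 41.9 and 3 counts in the controls. The other 8 transcripts had 0 counts in the shALDH1A1 libraries and in CTRL replicates 2 and 4, but 42.9 in CTRL replicate 1 and 291 in CTRL replicate 3. There NM_001202234.1 held 29.8% and 12.6% of the gene, and the others came to 9.32 and 41.7 TPM. CTRL replicates 1 and 3 were also the highest libraries in TPM for FOS, FOSB, JUN, JUNB, IER2, DUSP1 and ZFP36. The table gives no sequence for NM_001202234.1. By the authors' counts and TPM its effective length was 1.46 times that of NM_173157.3, and of 22 NR4A1 transcripts in the GENCODE annotation 2 exceeded 3000 bases. The coding one of these, NR4A1-206, has 3511 bases, 1.41 times the NR4A1 transcript of 2485 bases. The 1.46 compares effective lengths, from CTRL replicates 1 and 3 only, and the 1.41 compares full lengths. Whether the transcript of 2485 bases is NM_173157.3 was not checked. NR4A1-206 is the nearest by length, a match that rests on length alone. Its first exon of 8, outside the coding sequence at chr12:52431852-52432146 (GRCh37), holds 295 bases, each shared with transcripts of at least 1000 other genes. The most shared base of NR4A1-206 was in transcripts of 12017 other genes. The stretch resembles the 7SL RNA, from which Alu repeats derive. FOSB had such a stretch in 2 of 12 GENCODE transcripts (at most 125 bases), and the other 8 members had it in none. The 4875 other genes of the table with a protein-coding transcript that shares at least 100 bases of this stretch (27.2% of the genes with such a transcript) took 82.4 to 89.1% of the counts after knockdown. In the controls they took 24.0, 74.7, 28.6 and 14.1%, so that CTRL replicate 2, where NR4A1 was at 124 TPM, was the high control for both. The part of the repeat in the NR4A1 counts was not tested.

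**Figure D2:**
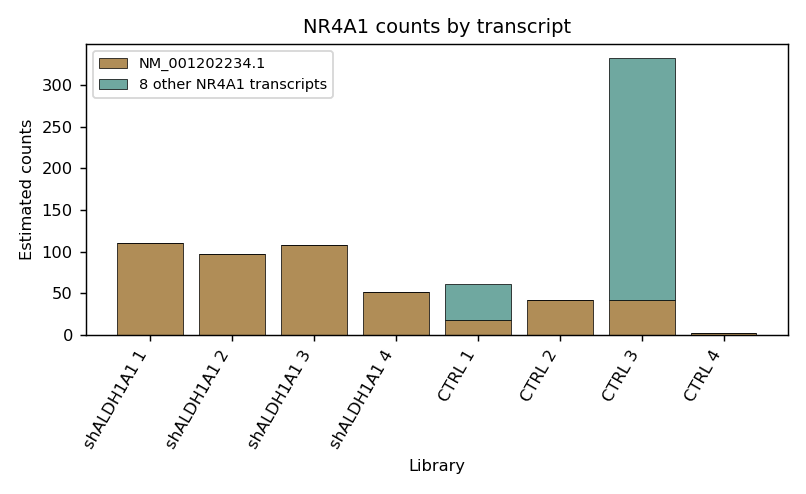
Estimated NR4A1 counts in each library, as stacked bars, split into NM_001202234.1 (brown) and the 8 other listed transcripts together (green). The other transcripts had counts only in CTRL replicates 1 (42.9) and 3 (291).

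The high library of the members was CTRL replicate 3. Of the 10 members 9 were highest there, against 3359 (24.0%) of the 13997 genes that averaged 1 TPM or more. Against the next CTRL library these 9 stood 1.73 to 39.5 times higher. The share of 13716 genes with a ratio at least as high was 0.0365% for FOSB, 0.445% for IER2, 0.569% for FOS, 1.66% for JUNB, 1.71% for JUN, 4.25% for EGR1, 5.18% for ATF3, 5.85% for DUSP1 and 15.1% for ZFP36. All 14 stomach genes were highest in the same library. Of 12 heat shock and ubiquitin genes that dissociation raises, 2 were highest there, and all 12 were highest in some CTRL library. The part of these genes in the members' levels was not tested.

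**Figure D3:**
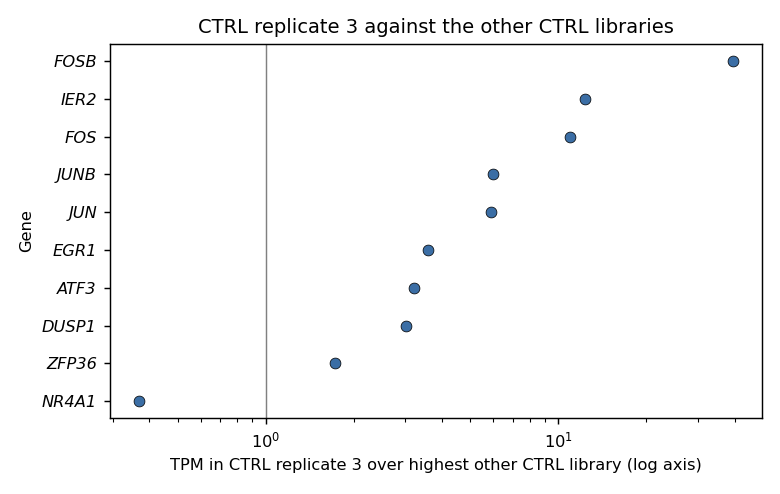
TPM in CTRL replicate 3 divided by the highest TPM among the other 3 CTRL libraries (log axis), 1 point per gene, with a vertical line at equal levels. The ratio was 39.5 for FOSB, 12.3 for IER2, 10.9 for FOS and 0.369 for NR4A1.

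Summed, the 10 members took 0.00637 to 0.0139% of the counts after knockdown and 0.0775, 0.0241, 0.346 and 0.0213% in the controls. Without NR4A1 the shALDH1A1 libraries held 0.000576 to 0.00640% and the CTRL libraries 0.00961 to 0.338%. The groups did not overlap either way, which by library totals also held for 3833 of 7971 tested genes lower and 279 higher. Set against the every-cell genes instead, the same 9 members had 21.6, 36.4, 25.8 and 44.02 counts per 1000 every-cell counts after knockdown. The controls then had 15.8, 8.71, 239 and 8.47. On this scale the shALDH1A1 libraries were above CTRL replicates 1, 2 and 4 and below CTRL replicate 3, the opposite order for 3 of the 4 CTRL libraries. These ratios rest on few counts. In shALDH1A1 replicates 1 and 4, 9 and 10 of the 34 every-cell genes were at 0. None of the 9 members had more than 3 counts in shALDH1A1 replicate 1, or more than 10 in CTRL replicate 2. The order was not tested.

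**Figure D4:**
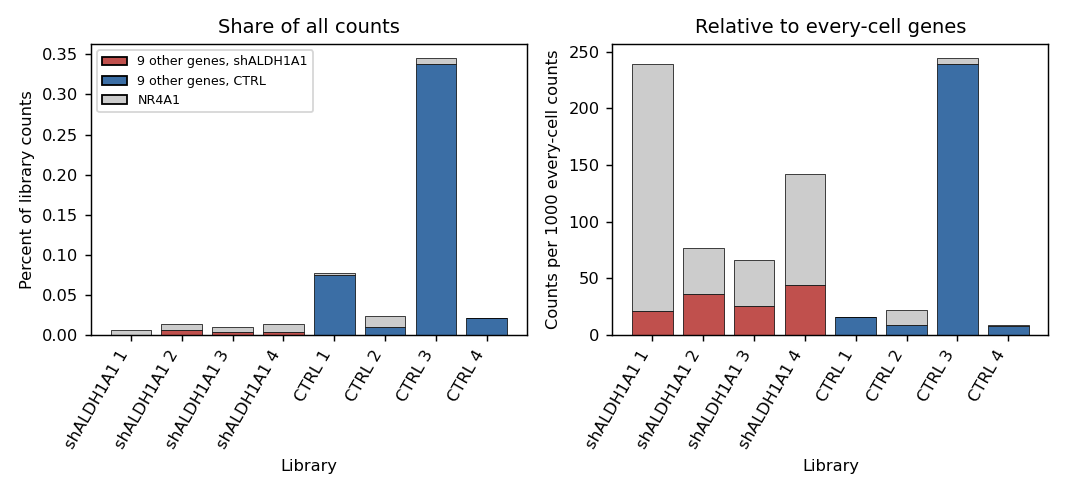
Summed counts of the 10 members in each library, with NR4A1 in grey and the other 9 in colour, as percent of library counts (left) and per 1000 counts of the 34 every-cell genes (right). CTRL replicate 3 was at 0.346% and 244 per 1000, and the order of the other libraries differed between the panels.

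Ratios between members within a library do not depend on the scale. Among the 6 members above 0 in all 8 libraries there were 15 pairs, of which 2 did not overlap between the groups. The background was 31.3% of 8464555 pairs among 4115 genes, so the count of member pairs was no higher. The first was JUN over JUNB, paralogs within AP-1, at 0.355, 0.304, 0.852 and 0.264 with the knockdown and 2.06, 1.06, 2.03 and 1.42 without it. JUN was thus below JUNB, per length, in each shALDH1A1 library and above it in each CTRL library. With the knockdown these ratios rest on 2, 4, 16 and 1 JUN counts over 3, 7, 10 and 2 JUNB counts. The ratio in CTRL replicate 2 rests on 6 over 3, so few reads carry them. The other was EGR1 over NR4A1, at 0.0204 to 0.264 against 0.267 to 5.32. FOS over JUN, the AP-1 pair, overlapped, at 0.804 to 10.4 against 0.367 to 1.30.

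With TMM scaling, 0 of 7 members had groups that did not overlap, against 36% of tested genes lower and 1.88% higher. Without TMM, by library totals, JUN, JUNB and ATF3 lay lower in all shALDH1A1 libraries, where 3833 of 7971 tested genes did, and on the every-cell scale NR4A1 alone lay higher in all, where 32.3% of tested genes did and 8.83% lay lower.

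**Figure D5:**
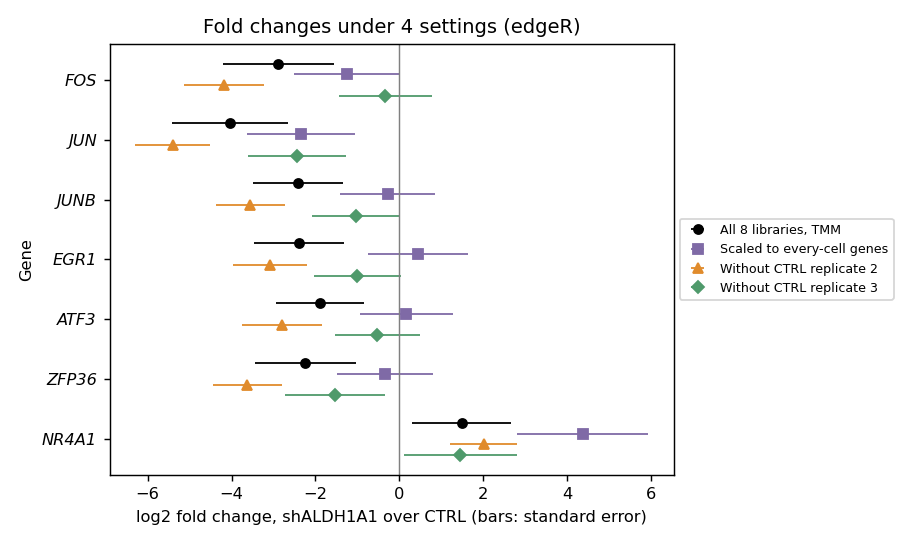
The log2 fold change of shALDH1A1 over CTRL in the edgeR fits (horizontal axis, bars 1 standard error) of the 7 tested members, with all 8 libraries (black), scaled to every-cell genes (purple), without CTRL replicate 2 (orange) and without CTRL replicate 3 (green). JUN ran from -5.40 to -2.35 and NR4A1 from 1.45 to 4.37, and EGR1 and ATF3 crossed 0 on the every-cell scale.

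The pathway around the members was described from lists of related genes, each by its calls in the same edgeR fit beside the 33% lower and 2.6% higher of all tested genes. Of 13 other bZIP partners of FOS and JUN 7 were tested, and 1 fell. It was JUND, the JUN family member that is expressed at rest, with 0, 3, 8 and 2 counts against 169, 6, 507 and 82 (log2 fold change -2.95, adjusted p = 0.0345 with edgeR). JDP2, a repressor that binds AP-1 sites, had 835, 292, 490 and 118 counts against 59, 61, 105 and 28, and at 3.34 (adjusted p = 0.0717 with edgeR) did not pass. JDP2 is among the genes that share the repeat stretch described for NR4A1, as are SGK1 and DNAJB1 below, which fell. The part of the repeat in their counts was not tested. The list's median log2 fold change was -1.03, beside -1.44 for all tested genes.

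Among 30 other genes known to be induced early, 14 were tested, 6 fell and none rose, with a median of -2.80. GADD45B, a stress sensor, had 0, 0, 0 and 1 counts against 176, 7, 257 and 40 (-6.33, adjusted p = 0.000745 with edgeR). SGK1, a serum-induced kinase, was at -6.16 (adjusted p = 0.00218 with edgeR), and CCN2, a secreted matrix protein, had 0 to 3 counts against 212, 3, 704 and 76 (-5.03, adjusted p = 0.00351 with edgeR). Of the 26 in this list that averaged 1 TPM or more, 15 (57.7%) were highest in CTRL replicate 3.

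Of 29 kinases, adaptors and promoter factors upstream of the members 23 were tested, 11 fell and none rose, with a median of -2.51. MAPKAPK2, the kinase by which p38 stabilises AU-rich messages, had 2, 1, 0 and 0 counts against 213, 4, 310 and 82 (-5.23, adjusted p = 0.00132 with edgeR). MAPK9, a kinase that phosphorylates JUN, was at -4.93 (adjusted p = 0.00222 with edgeR). The summed counts of the list went the other way, at 0.843 to 1.08% of the library after knockdown and 0.101 to 0.721% in the controls. Most of these counts after knockdown lay on BRAF and RPS6KA5, which were chosen for naming after their values were seen. BRAF held 59.5% of the list's counts after knockdown (3.59, adjusted p = 0.180 with edgeR). RPS6KA5, a kinase of CREB, held 39.2% (3.68, adjusted p = 0.155 with edgeR). The RPS6KA5 counts were 8514, 4818, 6794 and 1583 against 162, 738, 158 and 51. Of 12 further inhibitors of the cascade 8 were tested, 2 fell and none rose, with a median of -0.47. DUSP16, a phosphatase of JUN kinases, had 0 counts in all shALDH1A1 libraries against 88, 4, 189 and 36 (adjusted p = 0.000725 with edgeR), whereas DUSP10, of the same family, had 125 to 202 against 15 to 79 (1.81, adjusted p = 0.254).

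For the decay of the messages, 10 of 11 readers of AU-rich elements and deadenylation factors were tested, 5 fell and none rose, with a median of -2.75. ZFP36L1, the paralog of ZFP36, had 2 to 7 counts against 743, 23, 776 and 161 (-3.78, adjusted p = 0.0121 with edgeR). Of 20 genes known as AP-1 or EGR1 targets 8 were tested, 3 fell and none rose, with a median of -2.75, among them PLAU, the urokinase gene, with 0 counts in all shALDH1A1 libraries against 21, 5, 78 and 12. Of the 12 heat shock and ubiquitin genes 1 fell, DNAJB1 (-3.21, adjusted p = 0.0221 with edgeR), with a median of -2.58 for the list. The calls of these lists moved with the scale. When libraries were scaled to every-cell genes, 0 of the bZIP partners, 3 of the early genes, 0 of the upstream genes, 1 of the inhibitors, 0 of the decay factors, 1 of the targets and 0 of the heat shock genes were lower, against 5.52% of all tested genes. On the same scale 2, 1, 4, 5, 2, 1 and 0 of them, in that order, were higher, against 39.7% of all tested genes. With median-of-ratios factors, in the same order, 2, 12, 17, 2, 7, 5 and 12 were lower and 1, 0, 1, 1, 0, 0 and 0 higher, in a fit that called 4192 genes lower and 903 higher.

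The genes whose profile over the 8 libraries was most like the mean of the 7 tested members were ANKRD36, GIGYF1, OFD1, TBCD and MARCHF6. The root mean square difference of the centred log2 profiles was 0.558 to 0.597 for these 5, against a median of 1.78 over the 5951 genes compared. The members' own difference from their mean was 0.474 for JUNB, 0.619 for ATF3, 0.753 for EGR1, 0.867 for FOS, 1.13 for ZFP36, 1.33 for JUN and 2.52 for NR4A1. NR4A1 was therefore further from the members' mean than the median gene was. The 5 genes shared the low shALDH1A1 replicate 1 and the high CTRL replicate 3 with the members, and they share libraries and depth.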

How the data were processed

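RNA-seq was analysed in 4 shALDH1A1 and 4 CTRL libraries labelled as HT29 cells. The authors deposited estimated counts and TPM for 84798 transcripts. The paper states alignment to hg19 with HISAT and RSEM, whereas Bowtie2, BWA and GRCh38.p13 appear in the submitters' processing notes. No RefSeq coordinate was compared with the table. Counts were summed per gene symbol (18664 genes), rounded and tested with edgeR 4.0.16 in R 4.3.3 (filterByExpr, minimum count 10 and minimum total 15, TMM, two-sided quasi-likelihood test adjusted by Benjamini-Hochberg). The SE is the absolute log2 fold change over the square root of F. The fit code was checked on simulated counts with changes balanced in sign, unlike these libraries, so this says nothing of its error rate here. Alternatives were other size factors, the 34 every-cell genes as library size, no filter, a replicate block, leaving out each library, DESeq2 1.42.0 and limma 3.58.1 on log2(TPM + 1) and log2(TPM + 0.1) for genes averaging 1 TPM or more. Depth was 291260 to 4137111 counts, and without molecular identifiers reads are not independent molecules. Repeats were found with BLAST 2.17.0. The members and lists were chosen with earlier results of these data known. Every member was named, and from each list the genes of smallest p (4 at most), of which some are not reported here. The labels give replicate numbers but do not state that these pair the samples.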

Additional observations from a re-analysis of the deposited data

Results flagged for a closer look

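In the shALDH1A1 group, EGR1 in replicate 1 stood apart from the other 3 libraries at 1.40 log2(CPM + 1) after TMM scaling, which rests on 2 counts. The others lay between 3.70 and 4.04. Its gap to the nearest of them exceeded Dixon's 95% critical value for 4 samples. Of 16 groups of 4 libraries checked, this was the only 1 so far apart, and chance gives about 1 in 20.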

How the results depend on the processing

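The count of members called lower, 1 of 7 with TMM, was 6 with median-of-ratios factors, 6 with library totals only, 0 when scaled to every-cell genes, 9 of 10 with no filter, 5 with DESeq2, and 2 with limma at either pseudocount. Leaving out each library in turn gave 0 to 8, with 8 without CTRL replicate 2, 6 without CTRL replicate 4, 3 without shALDH1A1 replicate 3, and 0 without CTRL replicate 3 or without shALDH1A1 replicate 1 or 4. The genes called lower, 2627, became 4192, 4145, 440, 6848 and 4449 in the same order, 4301 and 4175 with limma at pseudocounts of 1 and 0.1, and 2025 to 5996 with a library left out. The genes called higher, 207, became 903, 59, 3165, 1213, 1326, 1277 and 1155, and 52 to 1715 with a library left out. Members called higher were 0, except 1 (NR4A1) on the every-cell scale, and 0 to 1 with a library left out. EGR1 (0.45) and ATF3 (0.16) changed sign on the every-cell scale. Genes that lay lower without overlap, 2870, were 704 on that scale, and members went from 0 to 3 with library totals only. Genes higher without overlap, 150, were 672 with median-of-ratios factors, 279 with library totals only and 2574 on the every-cell scale, with 1 member there. JUN passed in 11 of 16 alternatives, from -6.28 to -2.35. The causes of these moves were not tested. With a replicate block 1 member (JUN) and 2508 genes were lower and 1030 higher. Deviations of same-numbered libraries correlated at -0.347, -0.0673, -0.176 and 0.146, and those of differently numbered libraries at -0.32 to 0.386. No pairing by number was seen, but libraries so unlike in depth and make-up cannot exclude one. FOSB, IER2 and DUSP1, at 3, 8 and 10 counts over all shALDH1A1 libraries, and NR4A1 in CTRL replicate 4, at 3 counts, are limited by depth.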
